A study of Mus musculus with 8 samples.

Results

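Sorted CD4+ CD8+ double-positive (DP) thymocytes of BALB mice were set against DP thymocytes of B6 mice, gene by gene. The comparison rests on 4 of the study's 8 RNA-seq libraries, 2 per strain, taken by their library names. The other 4 libraries are whole thymocytes of the same strains, with 2 per strain, and served to estimate the spread between replicates and for a comparison of populations. All mice were wild type, no treatment or age is given, and the labels name the strains only as B6 and BALB. The DP sort took CD69-negative cells whose T cell receptor (TCR) beta chain stained at a low to medium level with the antibody H57. Nothing says that libraries of 1 group came from separate mice, so p-values measure the spread between these samples, which may be technical.

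DP cells are the stage at which developing T cells rearrange the TCR alpha locus with the RAG1-RAG2 recombinase and carry both coreceptors. They arise from a burst of division, then rest, and live or die by how their new receptor binds MHC molecules of the thymus. Inbred strains differ in the MHC itself, B6 carrying haplotype b and BALB haplotype d, and in many other alleles, so a strain contrast in 1 sorted population reads out inherited differences in expression together with any difference in the state of the cells.

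The DP libraries held 2632083 to 5974684 counts in genes, and BALB replicate 1 was the deepest and BALB replicate 2 the shallowest. Levels below are CPM, counts scaled to library size, with TMM as the correction for composition. The pair of BALB libraries was less alike than the B6 pair. Chi-square per degree of freedom between the libraries of a group was 16.9 in BALB DP and 3.83 in B6 DP. It was 4.09 in whole BALB and 1.59 in whole B6 thymocytes. The fit pooled the spread of each gene over these groups, so its p-values and standard errors may understate the spread of BALB DP. Among 8104 genes at a mean of 10 CPM or more, 203 differed over 2-fold between the BALB replicates, 146 of them higher in replicate 1, against 71 genes between the B6 replicates. Pearson correlation of log2 CPM across genes was 0.985 within B6, 0.977 within BALB and 0.951 to 0.960 between strains. Ribosomal RNA assigned to Rn45s took 3.14% and 6.94% of counts in BALB replicates 1 and 2, and 5.11% and 7.24% in B6. Reads of both strains were aligned to mm10, the sequence of C57BL/6J, and 12.8% and 21.2% of BALB reads and 14.6% and 18.6% of B6 reads did not align. Whether mismatches to that reference lowered single genes in BALB was not tested. Each library held RNA of the Y-linked gene Ddx3y, at 166 and 120.2 CPM in B6 and 206 and 172 CPM in BALB. In these bulk samples, fewer cells of a type and less RNA per cell cannot be told apart.

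Of 11409 genes tested, 1482 (13%) differed between the strains at an adjusted p under 0.05 by edgeR's quasi-likelihood test, 781 (6.85%) higher and 701 (6.14%) lower in BALB. The call shares are the background against which the groups of genes below are read. The median log2 fold change over all tested genes was 0.0028. Differences over 2-fold numbered 262 higher and 320 lower, over 4-fold 81 and 134, and over 16-fold 31 and 41, so that at each of these sizes more genes were lower than higher in BALB. CPM did not overlap between the strains for 1481 of the called genes, and for 52.2% of all tested genes. The count depended on which BALB library was used. Without BALB replicate 1, 1007 genes passed (8.47%), and without BALB replicate 2, 3493 passed (29.3%), while 826 of the 1482 genes passed in both of these fits and in the full one, 403 higher and 423 lower. Without B6 replicate 1 the count was 659, and without B6 replicate 2 it was 509. A fit to the 4 DP libraries alone called 562 genes (5.38%), 232 higher and 330 lower, of which 561 were among the 1482.

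**Figure D1:**
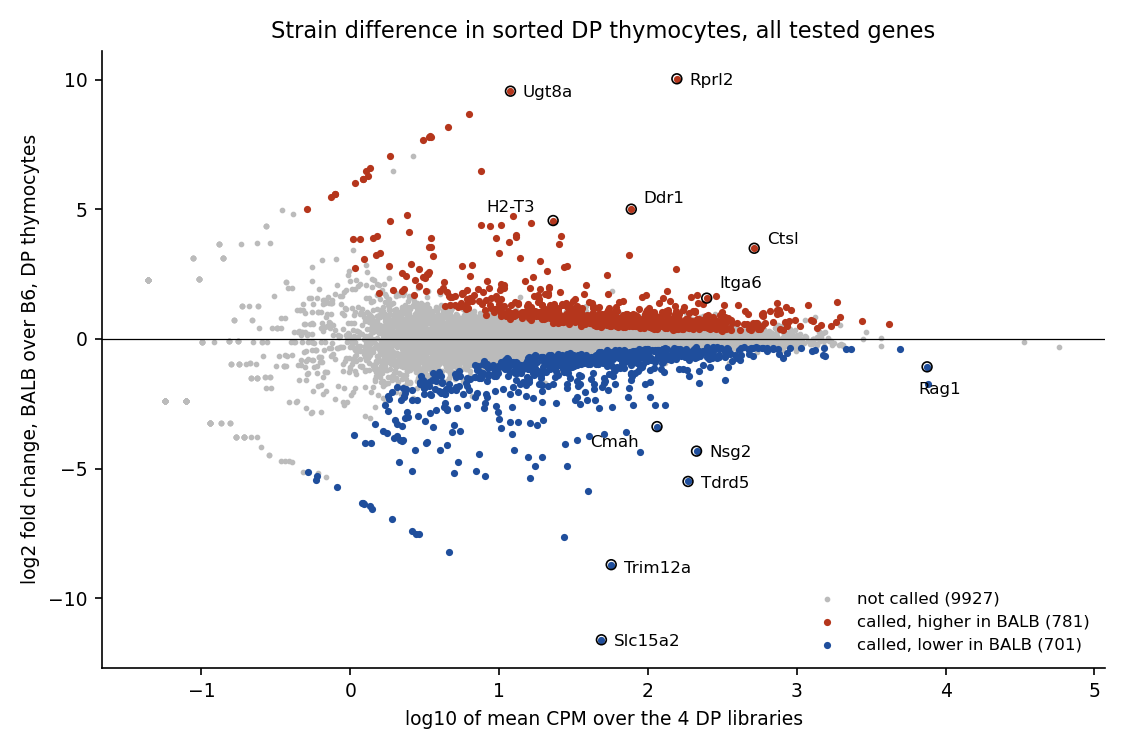
Each point is 1 tested gene, with the log10 of its mean CPM over the 4 DP libraries on the x axis and its log2 fold change, BALB over B6, on the y axis. The 781 genes called higher in BALB are red, the 701 called lower are blue and the rest grey, and ringed genes are named. The points along sloping lines at both edges are genes with 0 counts in 1 strain, whose fitted fold changes depend on the prior count.

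The largest losses in BALB were close to on or off. Slc15a2, which encodes the peptide transporter PEPT2 (chr16:36750161-36785158), was at 132 and 63.3 CPM in the B6 libraries and 0 and 0 CPM in the BALB libraries. With a floor of 3 counts over the 2 BALB libraries, it was at least 254-fold lower in BALB (adjusted p = 4.44e-05). B6 replicate 1 was the higher of its pair, and both B6 libraries were far above BALB. Trim12a, a TRIM-family gene related to the retroviral restriction factor TRIM5 (chr7:104299893-104315558), was at 109 and 117 CPM in the B6 libraries and 0.35 and 0 CPM in the BALB libraries. Its counts differed by 472-fold (exact 95% counting interval 130.2 to 3900.4), and TRIM genes of this cluster are near copies of one another, so reads may be split among them. Myzap (chr9:71504347-71592360) was at 58.7 and 49.6 CPM in the B6 libraries and 0.35 and 0 CPM in the BALB libraries, a difference of 221-fold (exact 95% counting interval 60.9 to 1833). Slit3 and Gfra1, low in B6 at 3.45 to 7.54 CPM, had no count in either BALB library and were at least 15.7-fold and at least 16.1-fold lower. In all, 15 called genes had 0 counts in both BALB libraries and 18 had 0 counts in both B6 libraries, where 0 counts allow up to 0.362 CPM in BALB and 0.397 CPM in B6, counting error only.

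Several abundant transcripts fell by more than 10-fold yet remained measurable in BALB. Tdrd5, a Tudor-domain gene known from germ cell piRNA granules (chr1:156255296-156304304), was at 359 and 369 CPM in the B6 libraries and 8.41 and 7.38 CPM in the BALB libraries (log2 fold change -5.50 ± 0.14, adjusted p = 1.23e-09). Nsg2, a neuronal vesicle-trafficking gene (chr11:31999704-32059211), was at 398 and 411 CPM in the B6 libraries and 20.8 and 19.02 CPM in the BALB libraries (log2 fold change -4.33 ± 0.13, adjusted p = 3.15e-09). Both had the smallest p-values among genes lower in BALB. Rab6b, a small GTPase of Golgi transport, was at 75.02 and 81.6 CPM in the B6 libraries and 1.4 and 1.16 CPM in the BALB libraries (-5.85 ± 0.34 on the log2 scale). Epsti1, an interferon-induced gene, was at 173 and 164 CPM in the B6 libraries and 9.64 and 5.44 CPM in the BALB libraries (-4.37 ± 0.19), with BALB replicate 1 the higher of its pair. Cnn3, encoding the actin-binding calponin 3, was at 91.7 and 95.3 CPM in the B6 libraries and 7.88 and 6.6 CPM in the BALB libraries (-3.65 ± 0.17). For these 5 genes the lowest B6 value was above the highest BALB value by a wide margin, and each passed with any 1 of the 8 libraries left out.

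In the other direction, Ctsl, encoding the lysosomal protease cathepsin L (chr13:64361890-64370772), had the smallest p among genes higher in BALB. It was at 90.7 and 78.4 CPM in the B6 libraries and 962 and 939.9 CPM in the BALB libraries (log2 fold change 3.49 ± 0.12, adjusted p = 7.88e-09). Cathepsin L is best known in the thymus from epithelial cells, so the 17 epithelial markers were read beside it. Of 13 tested, 2 were higher (Ctsl and Ly75) and 1 lower (Epcam), with a median log2 fold change of 0.57, and of 0 without BALB replicate 1. Ly75, the endocytic receptor DEC-205, was at 48.03 and 48.9 CPM in B6 and 71.8 and 71.8 CPM in BALB (adjusted p = 0.0206; 0.124 and 0.125 without B6 replicate 1 or 2), and Epcam, an epithelial adhesion gene, at 4.39 and 4.57 CPM in B6 and 1.05 and 2.33 CPM in BALB (adjusted p = 0.0442; 0.433 without BALB replicate 1, and also missed without either B6 replicate). Ccl25, a chemokine, was at 3.77 and 4.8 CPM in B6 and 7.71 and 4.66 CPM in BALB and did not pass (adjusted p = 0.282). Foxn1, Krt14, Trp63 and Cd80 had 0 counts in all 4 DP libraries, Krt5 and Krt8 were at or under 0.388 CPM, and Psmb11 was at 0.628 to 1.16 CPM. The summed CPM of the epithelial list was 162 and 152 in B6 and 1056 and 1030 in BALB, and Ctsl made up most of it in BALB. The part of epithelial RNA in the rise of Ctsl was not tested. Ctse, the aspartic protease cathepsin E, was at 10.4 and 17.6 CPM in the B6 libraries and 135 and 134 CPM in the BALB libraries (3.23 ± 0.20). Ddr1, a receptor tyrosine kinase for collagen (chr17:35681567-35704741), was at 3.77 and 5.26 CPM in the B6 libraries and 121 and 179 CPM in the BALB libraries (adjusted p = 2.85e-07). Itga6, the laminin-binding integrin alpha 6 chain, was at 127 and 123 CPM in the B6 libraries and 366 and 377 CPM in the BALB libraries (log2 fold change 1.57 ± 0.11, adjusted p = 4.29e-06), and Ccdc88a, which encodes the actin-binding protein girdin, was at 61.2 and 57.6 CPM in the B6 libraries and 227 and 194 CPM in the BALB libraries (1.83 ± 0.14). Ctsl, Ctse, Ddr1, Itga6 and Ccdc88a passed with any 1 library left out.

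Genes detected in BALB and not in B6 included Ugt8a, the galactosyltransferase that makes galactosylceramide (chr3:125865272-125938682), at 0 and 0 CPM in the B6 libraries and 20.1 and 27.6 CPM in the BALB libraries (at least 56.6-fold higher). Adam11, a catalytically inactive ADAM-family gene, was at 0 and 0 CPM in the B6 libraries and 8.06 and 10.1 CPM in the BALB libraries (at least 21.9-fold). Sycp1, a meiotic synaptonemal complex gene, was at 0 and 0 CPM in the B6 libraries and 6.13 and 7.76 CPM in the BALB libraries (at least 16.7-fold). Ltk, a receptor tyrosine kinase, was at 0 and 0 CPM in the B6 libraries and 6.83 and 5.44 CPM in the BALB libraries (at least 16.1-fold). These 4 genes were low even in BALB, at 5.44 to 27.6 CPM, and had no count in B6. Sh3pxd2b, an adaptor of invadopodia, was higher in BALB by 109-fold (exact 95% counting interval 19.1 to 4326).

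Both RNase P RNA genes moved, in opposite directions. Rpph1, the RNA subunit of the tRNA-processing enzyme RNase P (chr14:50807447-50807771), was at 12585 and 10918 CPM in the B6 libraries and 2974 and 3989.7 CPM in the BALB libraries (log2 fold change -1.76 ± 0.15, adjusted p = 1.50e-05). Rprl2, an RNase P RNA-like gene (chr3:22251370-22251607), was at 0.628 and 0 CPM in the B6 libraries and 187 and 438 CPM in the BALB libraries, a difference of 1002-fold (exact 95% counting interval 277 to 8282). In the GENCODE transcripts of GRCm38, 221 of 236 aligned positions (93.6%) of the pair are identical, so how reads were divided between them is uncertain. The BALB gain in Rprl2 was a small part of the BALB loss in Rpph1 on the CPM scale.

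**Figure D2:**
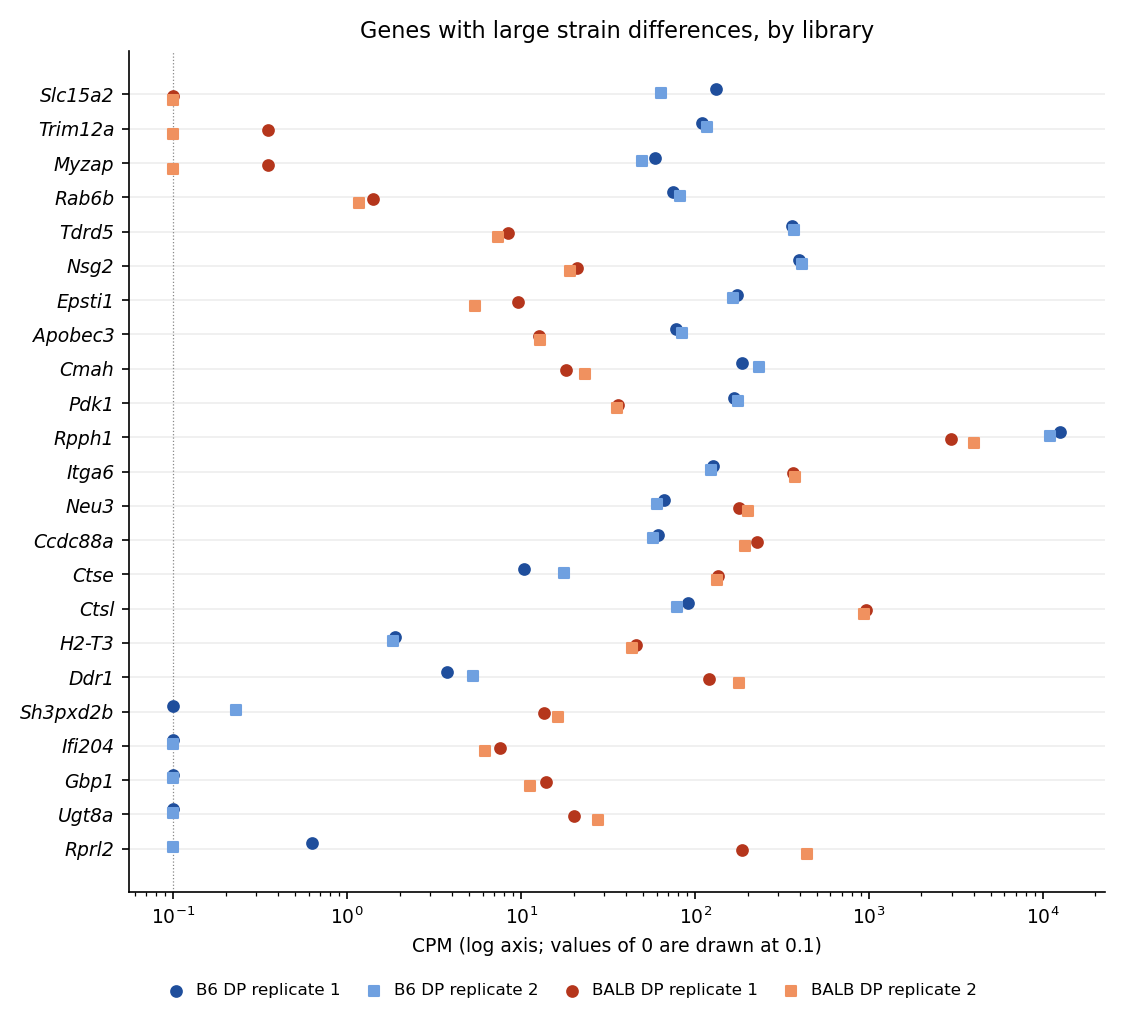
CPM of 23 genes in each of the 4 DP libraries, on a log axis with values of 0 drawn at 0.1. B6 libraries are blue and BALB libraries red or orange, with circles for replicate 1 and squares for replicate 2. In each row both BALB points lie on the same side of both B6 points, as in 1481 of the 1482 called genes. For the genes with the largest change this was a condition of their choice.

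Transcription factors and a few other regulators of the DP stage were mostly lower in BALB where they differed. Of 27 tested, 8 fell and 2 rose, and the median log2 fold change was -0.06. Without BALB replicate 2, 10 fell and 5 rose. The list also holds Nwd1 and Arpp21, which are not transcription factors. The largest difference was in Nwd1, a NACHT and WD repeat gene, at 230.4 and 210.5 CPM in the B6 libraries and 33.1 and 43.1 CPM in the BALB libraries (log2 fold change -2.56 ± 0.14, adjusted p = 6.28e-07). Bcl6, a repressor, was at 293 and 288 CPM in the B6 libraries and 196 and 203 CPM in the BALB libraries (log2 fold change -0.54 ± 0.09, adjusted p = 0.00329). Satb1, the chromatin organiser of thymocytes, was at 5728 and 5439.8 CPM in the B6 libraries and 4199 and 4333 CPM in the BALB libraries (-0.39 ± 0.07, adjusted p = 0.00414). Foxo1, a forkhead factor of quiescence and homing, was at 86.01 and 74.3 CPM in the B6 libraries and 48.5 and 53.2 CPM in the BALB libraries (-0.66 ± 0.14). Arpp21, an RNA-binding gene of the DP stage, was at 2605 and 2615 CPM in the B6 libraries and 2003 and 2004 CPM in the BALB libraries (-0.38 ± 0.08). The 2 factors that rose, Gata3 and Tox, are known for their part in CD4 lineage choice. Gata3 was at 92.6 and 102 CPM in the B6 libraries and 143 and 144 CPM in the BALB libraries (0.56 ± 0.12) and Tox at 56.5 and 71.3 CPM in the B6 libraries and 98.6 and 91.2 CPM in the BALB libraries (0.57 ± 0.14). Strains did not overlap in any of these 7 genes, as in 1481 of the 1482 called genes. Apart from Nwd1 no difference was over 0.66 on the log2 scale. In the 4 DP libraries alone, 2 of the list passed, Nwd1 and Bcl6. Gata3 did not pass without B6 replicate 1 (adjusted p = 0.111) or 2 (0.0569), nor did Arpp21 (0.0578 and 0.0749). Foxo1 missed without B6 replicate 1 (0.0945), and Tox without B6 replicate 1 (0.186) or BALB replicate 1 (0.057).

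Among 19 recombination and end-joining genes, 3 fell and 1 rose (median -0.08), with 4 higher without BALB replicate 2. Rag1 was at 10504 and 9864 CPM in the B6 libraries and 4811 and 4845 CPM in the BALB libraries (log2 fold change -1.08 ± 0.08, adjusted p = 4.46e-06). Rag2, its partner, was at 328 and 303 CPM in the B6 libraries and 265 and 209 CPM in the BALB libraries and did not pass (adjusted p = 0.0997), though it did without BALB replicate 1 (0.0179). Dntt, terminal transferase, which adds bases at the joins, was at 1976 and 1801 CPM in the B6 libraries and 1235 and 1142 CPM in the BALB libraries (-0.67 ± 0.09, adjusted p = 0.000856). The coreceptor genes that define the sort did not pass. Cd4 was at 1662 and 1681 CPM in the B6 libraries and 1249 and 1486 CPM in the BALB libraries (adjusted p = 0.0658; 0.000325 without BALB replicate 2). Cd8a was at 1914 and 1833 CPM in B6 and 1697 and 1698 CPM in BALB (0.261), and Cd8b1 at 1327 and 1269 CPM in B6 and 1141 and 1146 CPM in BALB (0.181). Cd69, which the sort gated against, was at 13.5 and 14.4 CPM in B6 and 21.5 and 17.9 CPM in BALB (0.0875; 0.0215 without BALB replicate 2). Ptcra, the surrogate alpha chain of the stage before, was lower in BALB at 21.03 and 18.3 CPM in B6 and 9.46 and 10.9 CPM in BALB (-0.97 ± 0.22, adjusted p = 0.0133). It did not pass without BALB replicate 1 (0.0924) or without B6 replicate 1 (0.091) or 2 (0.0574).

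Genes that tune TCR signalling differed in both directions. Of 46 in the signalling list, 6 fell and 3 rose (median -0.06), while 13 fell without BALB replicate 2 and 4 fell and none rose in the 4 DP libraries alone. The members that fell with the smallest p are restrainers of the pathway. Pag1, the adaptor that anchors the inhibitory kinase CSK, was at 534 and 525 CPM in the B6 libraries and 282 and 321 CPM in the BALB libraries (log2 fold change -0.81 ± 0.10, adjusted p = 0.00034). Ptpn22, a phosphatase of LCK and ZAP-70, was at 163 and 160.2 CPM in the B6 libraries and 77.96 and 95.1 CPM in the BALB libraries (-0.91 ± 0.12, adjusted p = 0.000558). Rasa3, a GTPase-activating protein for RAS and RAP, was at 81.6 and 68.8 CPM in the B6 libraries and 37.7 and 37.7 CPM in the BALB libraries (-0.99 ± 0.15, adjusted p = 0.0013). Txk, a TEC-family kinase that acts downstream of the receptor, also fell, at 89.1 and 100.3 CPM in the B6 libraries and 61.8 and 56.7 CPM in the BALB libraries (-0.67 ± 0.13), and missed without B6 replicate 2 (adjusted p = 0.0936). Cd3g, a chain of the receptor complex itself, was higher in BALB at 497 and 532 CPM in the B6 libraries and 1312 and 762 CPM in the BALB libraries (1.01 ± 0.19, adjusted p = 0.00549), with a wide gap between the BALB replicates. Its log2 fold change was 0.56 without BALB replicate 1, and it missed without B6 replicate 1 (0.0503).

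Transcripts that respond to TCR signals were higher in BALB where they differed. Of 28 in that list, 5 rose and none fell (median 0.33). In the lower direction 2 members were at an unadjusted p under 0.05 in edgeR's fit, DESeq2 and limma-voom also called none, and 2 passed without BALB replicate 2. Nr4a1, the immediate early nuclear receptor NUR77, was at 9.1 and 9.37 CPM in the B6 libraries and 22.6 and 33.00 CPM in the BALB libraries (log2 fold change 1.54 ± 0.23, adjusted p = 0.00143). Cd5, an inhibitory receptor set by the strength of self recognition, was at 85.1 and 75.4 CPM in the B6 libraries and 135 and 159 CPM in the BALB libraries (log2 fold change 0.87 ± 0.12, adjusted p = 0.000669). Dusp6, a phosphatase of ERK, was at 22.6 and 18.1 CPM in the B6 libraries and 29.8 and 35.3 CPM in the BALB libraries (0.67 ± 0.19, adjusted p = 0.035). Nr4a1 and Cd5 passed with any 1 library left out. Dusp6 was near the threshold and missed without either B6 DP library (0.0639 and 0.255). Of 17 immediate early and AP-1 genes, Ier2 alone passed, at 13.5 and 13.7 CPM in the B6 libraries and 33.99 and 26.8 CPM in the BALB libraries (1.18 ± 0.22, adjusted p = 0.00547; 0.0574 without B6 replicate 2). Jun was at 137 and 109 CPM in B6 and 172 and 149 CPM in BALB (adjusted p = 0.172, and 0.0223 without BALB replicate 2), and Fos at 10.4 and 8.23 CPM in B6 and 13.7 and 13.98 CPM in BALB (adjusted p = 0.167).

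Of 35 tested surface molecules of DP cells, 5 rose and 3 fell (median -0.16), with 7 and 5 without BALB replicate 2. Cd2, an adhesion and costimulatory receptor, was at 44.6 and 45.5 CPM in the B6 libraries and 142 and 134 CPM in the BALB libraries (log2 fold change 1.62 ± 0.13, adjusted p = 9.76e-06). Cd44, the hyaluronan receptor, was at 10.04 and 9.37 CPM in the B6 libraries and 32.2 and 33.8 CPM in the BALB libraries (1.76 ± 0.21, adjusted p = 0.000255). Cd200, an immunoglobulin-family ligand, was barely counted in B6 at 0.314 and 0.686 CPM and was at 6.66 and 6.21 CPM in BALB (3.54 ± 0.48). Among those lower in BALB, Ly6d was at 73.8 and 62.6 CPM in the B6 libraries and 16.5 and 20.2 CPM in the BALB libraries (-1.92 ± 0.23). The costimulatory receptor Cd28 was low in B6, at 5.65 and 5.71 CPM, and lower in BALB, at 0.526 and 0.776 CPM (-3.16 ± 0.51). Each of these 5 genes kept its direction with any 1 library left out. In none did the strains overlap, as in 1481 of the 1482 called genes. Of 36 cytokine receptor and STAT feedback genes, 4 fell and 1 rose (median -0.16), with 9 lower without BALB replicate 2. Their called share of 13.9% is close to the 13% over all tested genes, and in the 4 DP libraries alone 2 fell and none rose. Il2ra, the IL-2 receptor alpha chain, was at 10.4 and 10.7 CPM in B6 and 2.1 and 1.16 CPM in BALB (-2.54 ± 0.36), and Tgfbr3, the TGF-beta coreceptor betaglycan, at 80.99 and 74.5 CPM in B6 and 37.5 and 37.7 CPM in BALB (-1.05 ± 0.13).

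Of 27 genes of the Bcl2 family and cell death, 1 rose and 2 fell (median 0.11), a share close to the background, with 5 and 5 without BALB replicate 2. Bcl2, which protects cells from death, was at 14.1 and 14.9 CPM in the B6 libraries and 31.7 and 31.8 CPM in the BALB libraries (log2 fold change 1.13 ± 0.16, adjusted p = 0.000813). Bmf, a BH3-only gene that promotes death, was at 111 and 112 CPM in the B6 libraries and 44.1 and 41.9 CPM in the BALB libraries (log2 fold change -1.37 ± 0.13, adjusted p = 3.49e-05). Of 15 p53 targets none passed by edgeR, DESeq2 or limma-voom, and 3 were at an unadjusted p under 0.05 in edgeR's fit, all higher in BALB. Without BALB replicate 2, 1 of them passed. Of 15 genes of the glucocorticoid receptor and its targets, 4 fell and none rose by edgeR (median -0.11), with 1 higher at an unadjusted p under 0.05 and by limma-voom. The same count fell in the 4 DP libraries alone and without BALB replicate 1. Txnip, which restrains glucose uptake, was at 341 and 322 CPM in the B6 libraries and 201 and 218 CPM in the BALB libraries (-0.66 ± 0.12, adjusted p = 0.00347). Tsc22d3, the glucocorticoid-induced leucine zipper, was at 125 and 124 CPM in the B6 libraries and 76.6 and 74.1 CPM in the BALB libraries (-0.72 ± 0.15, adjusted p = 0.00997), and missed without either B6 DP library (0.0644 and 0.0814). Pik3ip1, an inhibitor of PI3 kinase, was at 139 and 160.0 CPM in the B6 libraries and 94.4 and 99.8 CPM in the BALB libraries (-0.63 ± 0.12) and missed without B6 replicate 2 (0.0927).

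**Figure D3:**
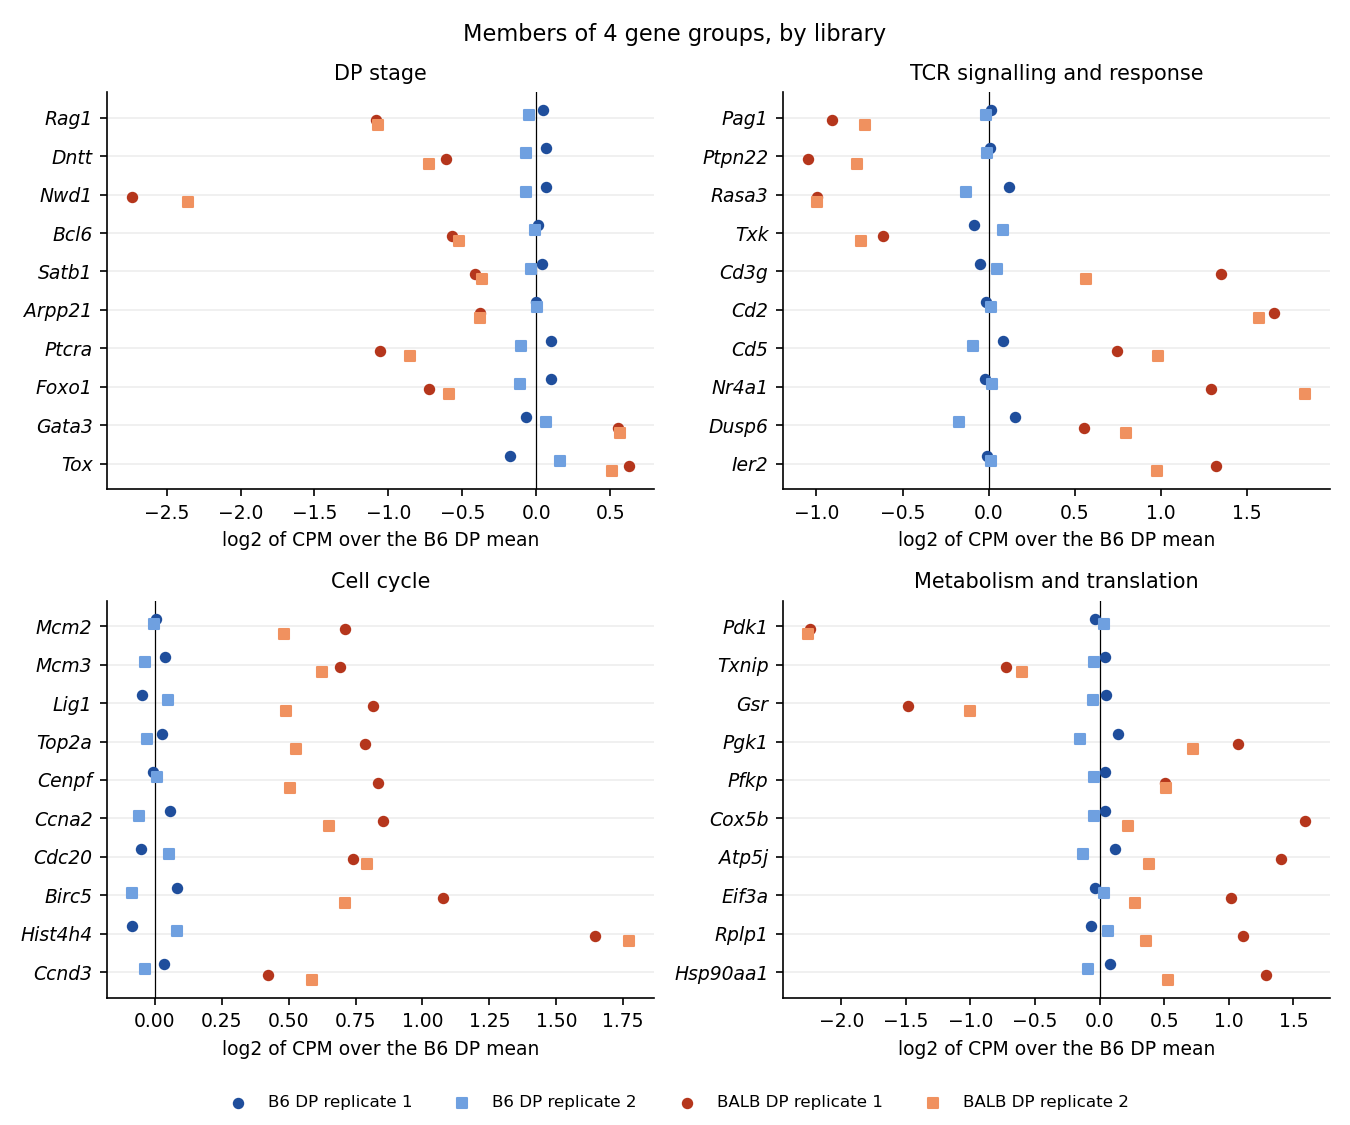
The log2 of each library's CPM over the mean of the B6 DP libraries for 10 genes in each of 4 groups. Blue points are B6 and red or orange points BALB, with circles for replicate 1 and squares for replicate 2. The BALB replicates lie close together for Rag1, Pdk1 and most DP stage genes and far apart for Cox5b, Atp5j and Rplp1.

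Of 27 tested genes of MHC class I and peptide loading, 5 were higher and 5 lower (37%, median 0.01). The lower count rested on single libraries, at 2 without BALB replicate 1, 9 without BALB replicate 2 and 2 by DESeq2. Of the 10, 5 are class I genes and the others, the chaperones Canx and Calr among them, serve peptide loading or regulation. H2-T3, the class Ib gene that encodes the thymus leukemia antigen (chr17:36185571-36190151), was at 1.88 and 1.83 CPM in the B6 libraries and 45.5 and 43.1 CPM in the BALB libraries (log2 fold change 4.56 ± 0.27, adjusted p = 8.69e-07). H2-Q4 was at 54.6 and 52.8 CPM in the B6 libraries and 109 and 130.1 CPM in the BALB libraries (1.14 ± 0.13). H2-Q2 was lower in BALB at 77.8 and 69.7 CPM in the B6 libraries and 3.33 and 9.32 CPM in the BALB libraries (-3.76 ± 0.33), and H2-T10 was at 33.3 and 33.1 CPM in the B6 libraries and 7.18 and 4.27 CPM in the BALB libraries (-2.43 ± 0.30). Class I genes are near copies of one another and polymorphic between these strains, so how reads were assigned among them is uncertain. The classical genes did not pass. H2-K1 was at 14.1 and 15.1 CPM in B6 and 12.1 and 12.4 CPM in BALB (adjusted p = 0.418) and H2-D1 at 8.79 and 11.2 CPM in B6 and 4.2 and 8.93 CPM in BALB (0.16, and 0.0117 without BALB replicate 2).

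Interferon-response genes were lower in BALB more often than higher, with 9 lower and 3 higher of 53 tested (median -0.21), with 8 and 2 without BALB replicate 1 and 12 and 5 without BALB replicate 2. Of the 12 called members, 7 are GTPases of the GBP and IRG families, which guard against pathogens inside cells. Gbp6 was at 33.3 and 26.3 CPM in the B6 libraries and 0.876 and 1.94 CPM in the BALB libraries (log2 fold change -4.56 ± 0.34, adjusted p = 6.25e-06), and Gbp8 at 359 and 347 CPM in the B6 libraries and 157 and 175 CPM in the BALB libraries (-1.09 ± 0.10). The immunity-related GTPase Igtp was at 71.9 and 71.8 CPM in the B6 libraries and 34.7 and 34.2 CPM in the BALB libraries (log2 fold change -1.06 ± 0.13, adjusted p = 0.000322), and its neighbour Irgm2 at 25.1 and 18.5 CPM in the B6 libraries and 8.93 and 10.5 CPM in the BALB libraries (-1.18 ± 0.22). Gbp7 was higher, at 57.4 and 51.2 CPM in the B6 libraries and 89.3 and 89.7 CPM in the BALB libraries (0.72 ± 0.13, adjusted p = 0.00381; 0.0712 without B6 replicate 2). Gbp1, which is on another list, had no count in B6 and 13.8 and 11.3 CPM in BALB (at least 32.9-fold higher). Ifnar1, a chain of the type I interferon receptor, was at 157 and 152 CPM in B6 and 80.1 and 107 CPM in BALB (-0.74 ± 0.14). Guanylate-binding proteins come in clusters of similar genes, so single members are uncertain.

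The promoters of 3 of these genes are shown because Igtp and Irgm2 fell while Gbp7 rose. They are RefSeq sequences of GRCm38.p6, from 250 bases before to 50 after the start of the gene, and so give the C57BL/6J allele and not that of BALB. Capitals mark matches to TTCNNNGAA, the core of the gamma-activated site bound by STAT dimers, which reads alike on both strands. It occurs in 6.96% of 9071 promoters of tested genes that were matched. Irgm2 was chosen for display after its values were seen.
Igtp (chr11:58199306-58199605, plus strand): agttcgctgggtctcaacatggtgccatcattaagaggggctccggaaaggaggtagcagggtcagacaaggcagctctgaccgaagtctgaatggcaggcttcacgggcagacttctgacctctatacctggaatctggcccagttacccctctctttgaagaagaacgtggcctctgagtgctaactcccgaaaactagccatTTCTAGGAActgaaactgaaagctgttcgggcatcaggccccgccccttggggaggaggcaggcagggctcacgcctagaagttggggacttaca
Irgm2 (chr11:58214727-58215026, plus strand): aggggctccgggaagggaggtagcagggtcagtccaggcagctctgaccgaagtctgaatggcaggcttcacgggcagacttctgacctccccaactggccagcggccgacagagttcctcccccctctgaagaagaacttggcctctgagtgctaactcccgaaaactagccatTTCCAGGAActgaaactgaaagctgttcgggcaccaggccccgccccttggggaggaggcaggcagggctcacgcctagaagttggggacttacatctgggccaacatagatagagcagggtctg
Gbp7 (chr3:142530086-142530385, plus strand): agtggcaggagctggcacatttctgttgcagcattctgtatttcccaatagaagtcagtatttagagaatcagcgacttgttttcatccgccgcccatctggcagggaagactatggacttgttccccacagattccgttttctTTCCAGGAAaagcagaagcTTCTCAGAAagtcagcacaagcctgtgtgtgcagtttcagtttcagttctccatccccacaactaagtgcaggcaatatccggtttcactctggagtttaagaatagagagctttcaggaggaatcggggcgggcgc
Igtp and Irgm2 each hold 1 match and Gbp7 holds 2. Among matched promoters of called interferon-response genes, a match stood in 3 of 5 lower and 2 of 3 higher in BALB. A match is a description of these letters and shows no binding.

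Of 28 genes that restrict retroelements and viruses, 5 rose and 4 fell (32.1% called, median 0.02). Apobec3, a cytidine deaminase that acts on retroviruses (chr15:79892058-79918218), was at 77.8 and 83.9 CPM in the B6 libraries and 12.6 and 12.8 CPM in the BALB libraries (log2 fold change -2.67 ± 0.16, adjusted p = 8.69e-07). Pyhin genes, which encode sensors and nuclear factors of the interferon response, differed in both directions. Pyhin1 was at 34.5 and 31.8 CPM in the B6 libraries and 4.38 and 1.16 CPM in the BALB libraries (-3.32 ± 0.31). Ifi203 was at 23.9 and 20.1 CPM in the B6 libraries and 55.7 and 62.1 CPM in the BALB libraries (adjusted p = 0.00011), and Ifi204 had no count in B6 and 7.53 and 6.21 CPM in BALB (at least 17.95-fold higher). These Pyhin genes also lie in 1 cluster of similar genes, and their division of reads is uncertain. The calls on Apobec3, Pyhin1, Ifi203 and Ifi204 held with any 1 library left out.

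Enzymes of glycans and sialic acid differed in 11 of 33 tested, 7 higher and 4 lower (median -0.16), with 9 and 10 without BALB replicate 2. Cmah, the hydroxylase that turns N-acetylneuraminic into N-glycolylneuraminic acid (chr13:24327404-24477289), was at 187 and 232 CPM in the B6 libraries and 18.04 and 23.3 CPM in the BALB libraries (log2 fold change -3.38 ± 0.16, adjusted p = 1.92e-07). St6gal1, which caps galactose with alpha-2,6-linked sialic acid, was at 46.5 and 41.6 CPM in the B6 libraries and 14.4 and 16.7 CPM in the BALB libraries (log2 fold change -1.52 ± 0.15, adjusted p = 5.68e-05). B4galnt1, a synthase of complex gangliosides, was at 48.3 and 56.2 CPM in the B6 libraries and 24.2 and 29.9 CPM in the BALB libraries (-0.98 ± 0.16). Neu3, a sialidase of gangliosides, was higher at 66.2 and 60.3 CPM in the B6 libraries and 178 and 200.3 CPM in the BALB libraries (log2 fold change 1.58 ± 0.12, adjusted p = 6.56e-06). The galectin gene Lgals1 was also higher, at 65.6 and 65.6 CPM in the B6 libraries and 144 and 110.3 CPM in the BALB libraries (0.97 ± 0.15). Without BALB replicate 1 the list held the same count, 7 higher and 4 lower.

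Of 21 genes of the SLAM and CD1d pathway, through which DP cells select natural killer T cells, 3 fell and 2 rose (median 0.04), with 1 higher without BALB replicate 1 and 5 lower without BALB replicate 2. Slamf6, a self-binding receptor of DP cells, was at 118 and 134 CPM in the B6 libraries and 69.9 and 70.3 CPM in the BALB libraries (log2 fold change -0.85 ± 0.12, adjusted p = 0.000669). Ctsd, the lysosomal protease cathepsin D, was at 192 and 185 CPM in the B6 libraries and 119 and 130.4 CPM in the BALB libraries (-0.60 ± 0.11), against the rise of Ctsl. Cd1d1, the lipid-presenting molecule, was at 25.7 and 26.5 CPM in B6 and 25.4 and 21.7 CPM in BALB and did not pass (adjusted p = 0.684). The list of 24 markers of natural killer T and memory-like T cells summed to 161 and 184 CPM in B6 and 113 and 135 CPM in BALB. Slamf6, which DP cells express, made up most of it and was the 1 member of 17 tested that passed. Il17rb was at 21.7 and 25.1 CPM in B6 and 22.1 and 31.8 CPM in BALB and Cd160 at 5.96 and 8.23 CPM in B6 and 4.55 and 5.05 CPM in BALB. Zbtb16, the factor that defines natural killer T cells, was at 0 to 0.35 CPM, and 9 of the 24 markers, Il2rb and Klrd1 among them, had no count in any of the 4 libraries. The part of such cells in the strain differences was not tested.

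Genes of migration and adhesion were lower in BALB in 11 and higher in 2 of 42 tested (median -0.19), and in 7 and 1 without BALB replicate 1. Itgal, the alpha chain of LFA-1, was at 569 and 575 CPM in the B6 libraries and 352 and 410.0 CPM in the BALB libraries (-0.59 ± 0.10, adjusted p = 0.00339). Itga4, the alpha chain of VLA-4, was at 342 and 313 CPM in the B6 libraries and 218 and 223 CPM in the BALB libraries (-0.57 ± 0.10, adjusted p = 0.00297; 0.0501 without B6 replicate 1). Plxnd1, a semaphorin receptor, was at 907 and 901 CPM in the B6 libraries and 539 and 672 CPM in the BALB libraries (-0.58 ± 0.11). With Itga6, described above, the integrin alpha chains thus moved in both directions. In the 4 DP libraries alone 2 of the list fell and 1 rose.

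Metabolic lists hold a few strong single-gene differences. Pdk1, the kinase that turns pyruvate away from mitochondria, was at 166 and 175 CPM in the B6 libraries and 36.1 and 35.7 CPM in the BALB libraries (log2 fold change -2.25 ± 0.14, adjusted p = 1.09e-06). It was the sole glycolysis gene of 24 that fell, while 5 rose (none in the 4 DP libraries alone; median 0.25), among them Pgk1, phosphoglycerate kinase, at 23.5 and 19.2 CPM in the B6 libraries and 44.8 and 35.3 CPM in the BALB libraries (0.94 ± 0.19, adjusted p = 0.00676; 0.1 without B6 replicate 2). Gsr, glutathione reductase, was at 39.6 and 36.8 CPM in the B6 libraries and 13.7 and 19.02 CPM in the BALB libraries (log2 fold change -1.27 ± 0.20, adjusted p = 0.0018). Scd2, a desaturase of fatty acids, was at 575 and 675 CPM in the B6 libraries and 405 and 389 CPM in the BALB libraries (-0.65 ± 0.11; adjusted p = 0.0539 without B6 replicate 2). It was the 1 gene of 28 in the cholesterol and lipid synthesis list to pass, while 5 passed lower and 2 higher without BALB replicate 2.

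The higher level of mitochondrial and translation genes rested in large part on BALB replicate 1. Without it the median log2 fold change was 0.18 for ribosomal protein genes and 0.097 for biogenesis genes, against 0.34 and 0.33 in full. Of 32 nuclear genes of oxidative phosphorylation, 8 rose (median 0.33), and none fell by edgeR, DESeq2 or limma-voom or at an unadjusted p under 0.05. Without BALB replicate 1 none passed by edgeR (median 0.19), though 7 were higher at an unadjusted p under 0.05, and without BALB replicate 2, 17 rose. Atp5j, a subunit of the ATP synthase, was at 99.2 and 83.6 CPM in B6 and 242 and 119 CPM in BALB (1.01 ± 0.24, adjusted p = 0.0188; 0.087 without BALB replicate 1). Cox5b, of cytochrome oxidase, was at 36.1 and 34.05 CPM in B6 and 105 and 40.8 CPM in BALB (0.0363; 0.535). In both, BALB replicate 2 stood closer to B6 than to BALB replicate 1. Cytosolic ribosomal protein genes gave 5 higher and 3 lower of 38 in full, 2 and 3 without BALB replicate 1, and 21 and 4 without BALB replicate 2. Ribosome biogenesis and translation genes gave 7 higher of 25, then 3, then 13. None was lower in full by edgeR, with 1 at an unadjusted p under 0.05, and 2 passed lower without BALB replicate 2. The median gap between BALB replicates 1 and 2 was 0.32 on the log2 scale for oxidative phosphorylation, 0.28 for ribosomal proteins and 0.32 for biogenesis, against 0.01 over 8104 genes and -0.01 to 0.08 for the same lists between the B6 replicates. By contrast, Rps2 and Rps14 fell in both BALB libraries. Rps2 was at 15.7 and 18.7 CPM in B6 and 2.28 and 2.72 CPM in BALB (-2.82 ± 0.29) and Rps14 at 144 and 146 CPM in B6 and 83.4 and 90.5 CPM in BALB (-0.74 ± 0.13). Ribosomal protein genes have many processed copies, so their counts are uncertain.

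Genes of the cell cycle were higher in BALB, and more so in replicate 1. Of 37 DNA replication genes 26 rose (median 0.56), and 18 rose without BALB replicate 1. Of 33 mitosis genes 27 rose and 1 fell (median 0.65), and 26 rose without that library. Of 49 replication-dependent histone genes 29 rose (median 0.77), and 29 rose without that library. With all libraries no replication or histone gene was lower by edgeR, DESeq2 or limma-voom or at an unadjusted p under 0.05, but 1 replication and 2 histone genes passed lower by edgeR without BALB replicate 2. In the 4 DP libraries alone fewer passed, with 6 replication, 14 mitosis and 15 histone genes higher and none lower. The 1 mitosis gene that fell by edgeR was not called by DESeq2. Mcm3, of the replicative helicase, was at 237 and 225 CPM in the B6 libraries and 373 and 356 CPM in the BALB libraries (log2 fold change 0.66 ± 0.11, adjusted p = 0.00248). Top2a, topoisomerase II of condensing chromosomes, was at 1447 and 1392 CPM in the B6 libraries and 2448 and 2044 CPM in the BALB libraries (log2 fold change 0.66 ± 0.10, adjusted p = 0.00141). Birc5, survivin, was at 99.5 and 88.7 CPM in the B6 libraries and 198 and 154 CPM in the BALB libraries (0.92 ± 0.14, adjusted p = 0.0012). Hist4h4, a histone H4 gene, was at 94.8 and 106 CPM in the B6 libraries and 314 and 344 CPM in the BALB libraries (log2 fold change 1.70 ± 0.13, adjusted p = 7.82e-06). The lower BALB value of Mcm3, Top2a and Birc5 was in replicate 2 each time and above both B6 values. Ccnd3, the D-type cyclin of dividing thymocytes, was at 497 and 473 CPM in the B6 libraries and 650.3 and 728 CPM in the BALB libraries (0.51 ± 0.10; adjusted p = 0.0846 without B6 replicate 2).

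Promoters of the mitosis list, which was drawn up by function, shared a motif of late cell cycle genes. Mitosis genes that did not pass were not counted apart, so the shares below describe the list and not the strain difference. TTTGAA, the cell cycle homology region of late cell cycle promoters, was searched on both strands, where it reads TTCAAA on the other. It stood in 18 of 22 matched promoters of mitosis genes higher in BALB (81.8%), against 12.1% of 9071 promoters of tested genes and 4 of 21 promoters of replication genes higher in BALB. CCAAT, searched likewise and not overlapping in letters with the first motif, stood in 20 of the 22 and in 39.4% of the 9071. The 1 matched promoter of a mitosis gene lower in BALB also held both motifs. The following 3 promoters are shown because their genes are a cyclin, a chromosome factor and an activator of the anaphase-promoting complex that all rose. Cdc20 was at 48.7 and 52.3 CPM in B6 and 84.4 and 87.3 CPM in BALB and Ccnb2 at 87.3 and 86.8 CPM in B6 and 160.1 and 126 CPM in BALB. Both were chosen after their values were seen, and capitals mark TTTGAA or TTCAAA.
Top2a (chr11:99024140-99024439, minus strand): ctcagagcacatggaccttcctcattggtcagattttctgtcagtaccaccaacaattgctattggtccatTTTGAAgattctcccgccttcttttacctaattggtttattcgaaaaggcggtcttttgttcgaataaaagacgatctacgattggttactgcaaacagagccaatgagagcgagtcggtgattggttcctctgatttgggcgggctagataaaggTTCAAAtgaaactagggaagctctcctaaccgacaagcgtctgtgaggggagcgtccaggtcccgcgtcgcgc
Cdc20 (chr4:118437294-118437593, minus strand): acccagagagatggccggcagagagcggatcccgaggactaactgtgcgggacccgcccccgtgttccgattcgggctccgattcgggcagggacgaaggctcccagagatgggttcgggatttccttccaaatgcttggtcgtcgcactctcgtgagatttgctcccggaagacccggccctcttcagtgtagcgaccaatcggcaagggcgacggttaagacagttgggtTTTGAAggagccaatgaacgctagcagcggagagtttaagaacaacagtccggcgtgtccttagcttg
Ccnb2 (chr9:70421505-70421804, minus strand): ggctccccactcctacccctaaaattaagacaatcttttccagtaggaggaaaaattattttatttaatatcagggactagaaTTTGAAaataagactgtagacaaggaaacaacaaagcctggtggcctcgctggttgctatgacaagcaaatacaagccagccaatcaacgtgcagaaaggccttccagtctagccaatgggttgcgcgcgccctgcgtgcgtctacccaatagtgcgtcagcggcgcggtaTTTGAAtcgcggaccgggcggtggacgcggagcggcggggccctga
Cdc20 holds 1 match 18 bases before its start, Top2a holds 2 at 179 and 23 bases before it, and Ccnb2 holds 1 at 167 bases before and 1 just after it. The match says that these letters stand there and no more.

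**Figure D4:**
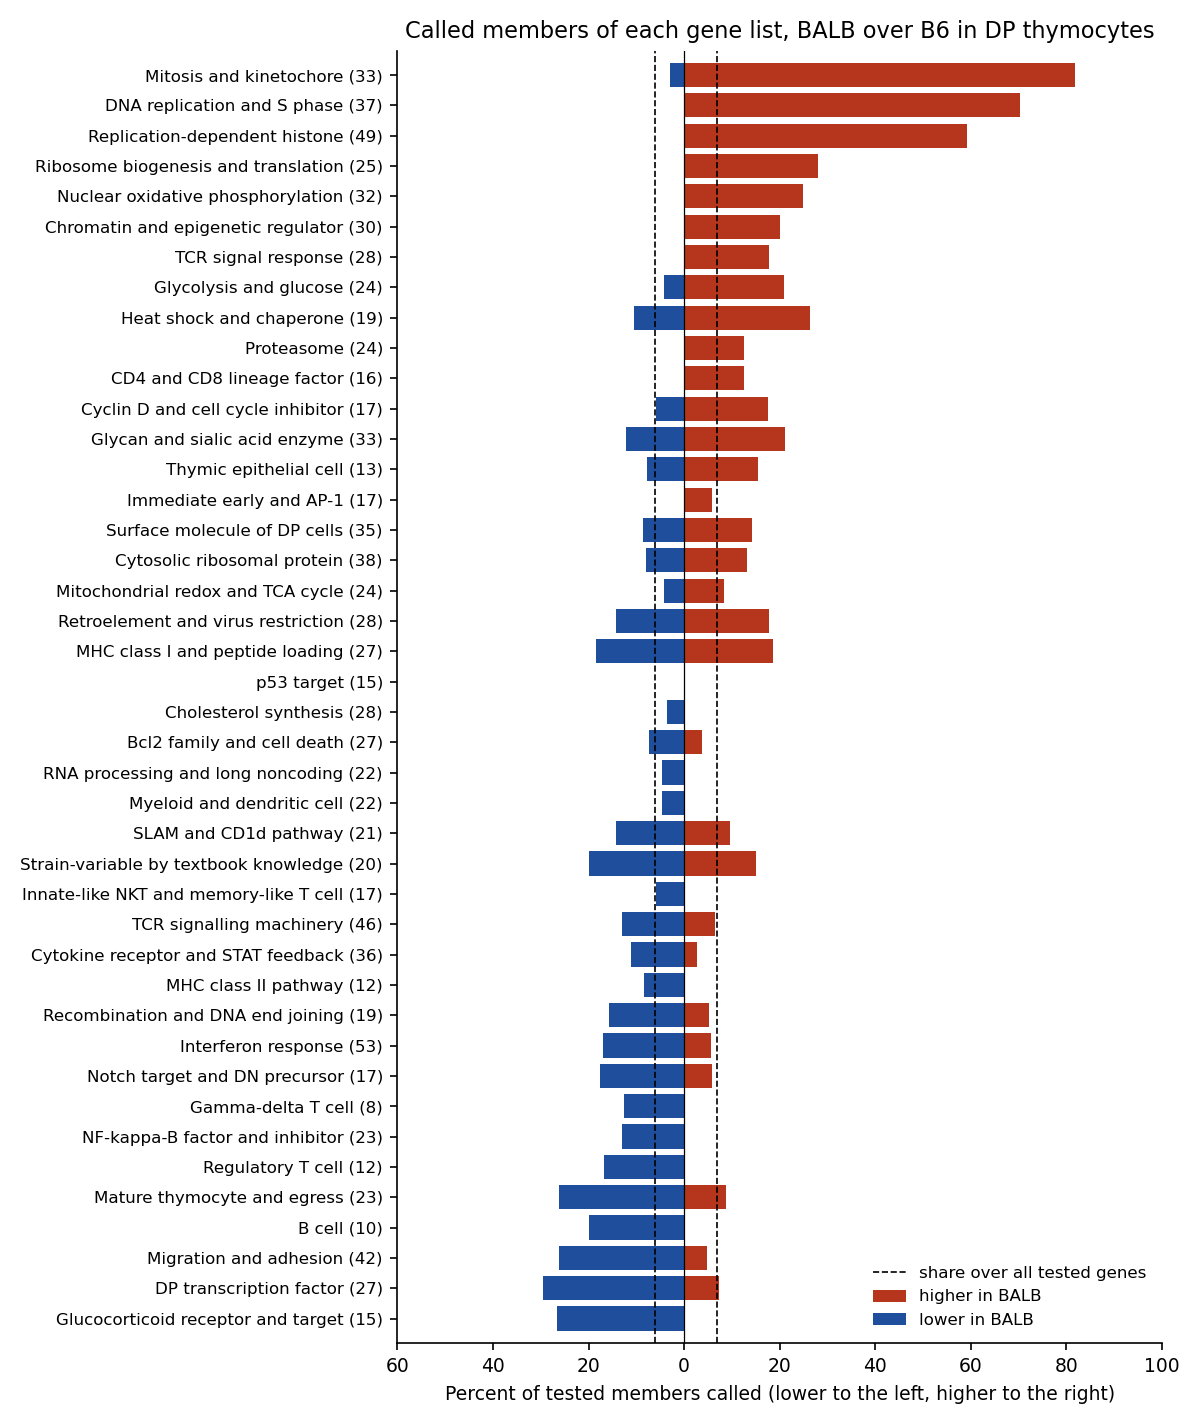
For each gene list with 8 or more tested members (number in brackets), bars give the percent of members called higher in BALB to the right and lower to the left, and dashed lines give the shares over all 11409 tested genes, 6.85% and 6.14%. Mitosis, replication and histone lists extend farthest to the right, and DP transcription factors and glucocorticoid targets farthest to the left.

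Markers of other cells were summed per library, and the sums of the myeloid and natural killer lists overlapped between the strains. The summed CPM of 14 B cell markers was 27.0 and 27.9 in B6 and 15.9 and 17.9 in BALB, with 2 of 10 tested members lower and none called by edgeR without BALB replicate 1, where 2 were lower and 1 higher at an unadjusted p under 0.05. For 28 myeloid and dendritic markers it was 49.0 and 59.9 in B6 and 61.3 and 55.5 in BALB, with 1 of 22 lower. For 13 erythroid and platelet markers it was 12.6 and 15.5, then 10.9 and 10.1. For 20 natural killer receptors it was 0 and 1.37, then 1.05 and 1.55, with 18 at 0 in all 4 libraries. For 14 endothelial and mesenchymal markers it was 1196 and 1200.1, then 1016 and 991, most of it Thy1, an antigen of thymocytes, at 1044 and 1031 CPM in B6 and 891 and 849 CPM in BALB. In that list 1 of 6 tested was higher, Col1a2 at 0 and 0 CPM in B6 and 1.05 and 1.94 CPM in BALB, and 1 lower, Acta2 at 8.16 and 7.77 CPM in B6 and 1.4 and 3.11 CPM in BALB, both calls being lost with some single libraries left out (adjusted p up to 0.162 and 0.139), and 7 of the 14 were at 0 in all 4 libraries. For 9 gamma-delta T cell markers it was 1132 and 1112, then 977 and 1061, with 1 of 8 tested lower, 3 at 0 in all 4 libraries and Sox4 at 493 and 471 CPM in B6 and 476 and 548 CPM in BALB. Of 23 tested genes of mature thymocytes and egress, 6 fell and 2 rose, with 4 and 1 without BALB replicate 1, 1 and 1 in the 4 DP libraries alone, and 2 and 1 by DESeq2. Emb, the adhesion gene embigin, was at 122 and 118 CPM in B6 and 49.4 and 51.6 CPM in BALB (-1.26 ± 0.13). The part of these cells in the strain differences was not tested.

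Called genes lay on every autosome, at 11.2% to 16.3% of the genes tested on each. On the X chromosome 36 rose and 9 fell of 358, a called share of 12.6%, close to the 13% over all tested genes. The split by direction on the X chromosome was not tested. Genes that were lower in BALB and lie near one another on chromosome 1 included Sertad4, Syt14, Diexf, A130010J15Rik, Traf3ip3, Hsd11b1, Lamb3 and Camk1g. Diexf, a nucleolar gene, was at 127 and 122 CPM in the B6 libraries and 56.8 and 60.6 CPM in the BALB libraries (log2 fold change -1.09 ± 0.12, adjusted p = 0.00011). Hsd11b1, the enzyme that regenerates active glucocorticoid, was at 25.7 and 32.4 CPM in the B6 libraries and 12.6 and 11.6 CPM in the BALB libraries (-1.26 ± 0.24; adjusted p = 0.0872 without B6 replicate 2). Traf3ip3, a thymocyte signalling adaptor, was at 306 and 311 CPM in the B6 libraries and 211 and 242 CPM in the BALB libraries (-0.45 ± 0.10; adjusted p = 0.0945 and 0.132 without B6 replicate 1 or 2). Syt14, a synaptotagmin, was at 9.1 and 11.4 CPM in the B6 libraries and 0.526 and 0 CPM in the BALB libraries, a difference of 28.8-fold (exact 95% counting interval 9.52 to 143). Sertad4, A130010J15Rik, Lamb3 and Camk1g missed without BALB replicate 1 (adjusted p = 0.0662, 0.253, 0.0535 and 0.0615).

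Whole thymocytes of the same strains, in separate libraries, gave 524 called genes (4.59%). Of these, 379 were also called in DP cells, 377 in the same direction. The 379 are 25.6% of the DP calls and 72.3% of the whole thymocyte calls. Both contrasts came from the same fit, which shares each gene's estimate of spread, so these calls are not independent of one another. Genes lower in BALB DP cells were found again in whole thymocytes more often, 35.7% against 16.3% of those higher, a difference that was not tested. Of the 826 genes that passed with either BALB DP library left out, 331 (40.1%) were also called in the same direction in whole thymocytes, against 46 of the other 656 (7.01%). The 826 were picked by how firmly they passed, so their higher share is no separate support. A test of the difference between the strain effects in DP and whole cells passed for 14 genes (0.123%). In 12 of them the DP effect was further toward lower in BALB. Among the 14 is the Y-linked Eif2s3y, at 0 and 8.49 CPM in the whole BALB libraries. The labels give no sex of the mice, and the part of sex in these differences was not tested. Kbtbd11, a BTB-kelch gene, was at 19.1 and 18.3 CPM in the B6 libraries and 1.4 and 2.33 CPM in the BALB libraries in DP cells and 61.99 and 65.3 CPM in B6 and 45.6 and 43.9 CPM in BALB in whole thymocytes (difference -2.92 ± 0.32, adjusted p = 0.00502). Pde3b, a phosphodiesterase of cyclic AMP, was at 86.3 and 83.9 CPM in the B6 libraries and 21.4 and 22.5 CPM in the BALB libraries in DP cells and 119 and 108 CPM in B6 and 96.6 and 97.1 CPM in BALB in whole thymocytes (-1.73 ± 0.17, adjusted p = 0.00502). St6gal1 was at 46.5 and 41.6 CPM in the B6 libraries and 14.4 and 16.7 CPM in the BALB libraries in DP cells and 92.99 and 88.8 CPM in B6 and 104 and 103 CPM in BALB in whole thymocytes (-1.71 ± 0.20, adjusted p = 0.00502). For Cmah and Epsti1 the strain difference had 1 direction in both and was larger in DP cells, by -1.80 and -1.55 on the log2 scale. The count of 14 rested on single libraries. It was 0 without whole B6 replicate 2 in edgeR's fit, with 754 genes at an unadjusted p under 0.05, and 1311 without BALB DP replicate 2.

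**Figure D5:**
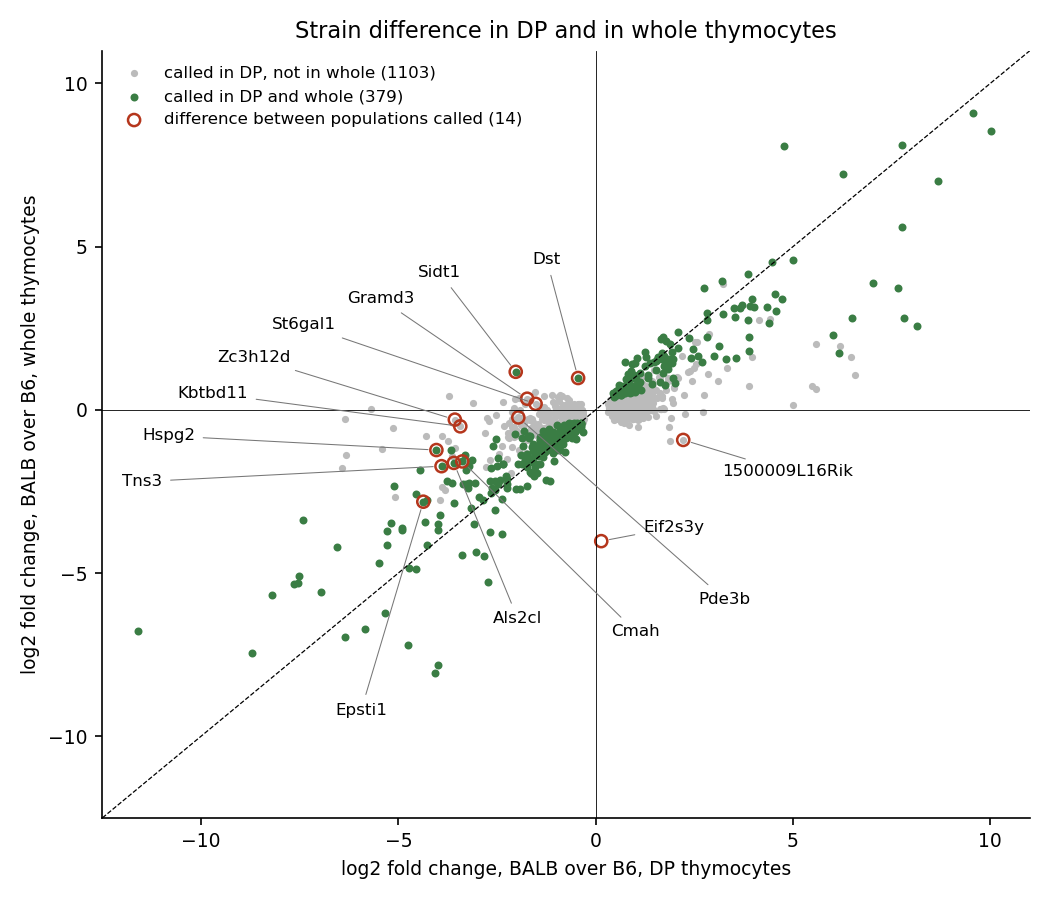
Log2 fold change, BALB over B6, in DP thymocytes on the x axis and in whole thymocytes on the y axis, for genes called in DP cells and the 14 whose strain effect differed between the populations. Green points are called in both, grey points in DP cells and not in whole thymocytes, and red rings mark those 14. The dashed line marks equal effects, and most ringed genes lie above it on the left, with a larger loss in DP cells.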

How the data were processed

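Raw whole-number counts per gene symbol were deposited by the authors, 1 table per library. The submitters' processing notes name HISAT2 2.2.0, HTSeq, DESeq2 1.42.1 and the build mm10. Which annotation and strand setting the counting used is not given in the sources. Per the labels' protocols, cells were sorted on a FACSAria III and libraries built with a TruSeq RNA v2 kit, which keeps no strand, so reads of overlapping or antisense genes cannot be told apart. HTSeq's last lines, 69.2% to 76.7% of reads in the DP libraries, name no gene and were left out.

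All 8 libraries in 4 groups were fitted with edgeR 4.0.16 (TMM, filterByExpr, quasi-likelihood F test, Benjamini-Hochberg adjustment over 11409 genes) in R 4.3.3, and the contrast BALB minus B6 in DP cells was taken. Fold changes carry their standard error (SE). The fit was tested on simulated data. DESeq2 1.42.0 and limma 3.58.1 were alternatives. CPM are TMM-scaled counts.

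The comparison and the gene lists were chosen with earlier results of these data known. The text names, per direction, from the 12 called genes with the largest change and the 8 with the smallest p. The 12 were taken among genes at 5 CPM or more whose strains do not overlap in CPM. From each list it names up to 6 called members by p and 3 abundant ones that missed. Genes of runs of called neighbours and of the test between populations were added. Irgm2, Cdc20, Ccnb2, H2-K1, H2-D1, Cd1d1, Foxp3, the remaining genes of the test between populations and markers of other cells stand outside that rule and were chosen after their values were seen. A few genes are not reported here. Positions are RefSeq's on GRCm38.p6. The counts of 2 libraries per group limit the precision, and intervals cover counting error only.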

Additional observations from a re-analysis of the deposited data

Results flagged for a closer look

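The strain effect differed between DP and whole thymocytes in 14 genes by the test of the difference itself (edgeR, adjusted p under 0.05). Values are the log2 strain difference in DP cells minus that in whole thymocytes, each with 2 libraries per group. In 6 of them the strain difference passed in DP cells and not in whole thymocytes, among them Kbtbd11 (-2.92), the RNA-binding regulator Zc3h12d (-3.27), Pde3b (-1.73) and St6gal1 (-1.71). In another 5 both populations were lower in BALB and DP cells more so. These were Cmah (-1.80), Als2cl (-1.97), the focal adhesion gene Tns3 (-2.18), Hspg2, which encodes perlecan (-2.80), and Epsti1 (-1.55).

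As with St6gal1, the fitted effects pointed in opposite directions in 4 others, of which Gramd3 and 1500009L16Rik did not pass in whole thymocytes. Sidt1, a transmembrane gene of RNA uptake, was at 13.5 and 17.1 CPM in B6 and 4.73 and 1.94 CPM in BALB in DP cells and at 17.7 and 16.7 CPM in B6 and 42.7 and 34.5 CPM in BALB in whole thymocytes (-3.19). Dst, which encodes the cytolinker dystonin, was at 63.4 and 58.95 CPM in B6 and 45.02 and 44.6 CPM in BALB in DP cells and at 95.5 and 97.7 CPM in B6 and 187 and 193 CPM in BALB in whole thymocytes (-1.42). The DP difference in Dst was near the threshold in edgeR's fit (adjusted p = 0.0299) and missed it without either B6 DP library (0.19 and 0.128). Gramd3 was at 37.98 and 48.4 CPM in B6 and 11.2 and 15.9 CPM in BALB in DP cells and at 32.7 and 33.1 CPM in B6 and 45.2 and 38.2 CPM in BALB in whole thymocytes (-2.08). The uncharacterised gene 1500009L16Rik was at 2.83 and 3.2 CPM in B6 and 17.3 and 9.71 CPM in BALB in DP cells and at 10.7 and 12.1 CPM in B6 and 6.52 and 5.49 CPM in BALB in whole thymocytes (3.14).

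For the Y-linked gene Eif2s3y the strain effects also differed (4.16). It was at 74.1 and 66.95 CPM in B6 and 84.1 and 69.9 CPM in BALB in DP cells. In whole thymocytes it was at 74.5 and 62.6 CPM in B6 and 0 and 8.49 CPM in BALB, where replicate 1 had no count. The labels give no sex of the mice, and the part of sex in this difference was not tested.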

How the results depend on the processing

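The count of 1482 called genes and its 781 higher and 701 lower depended on the DP libraries used and on whether whole thymocytes were fitted too. The fit to the 4 DP libraries alone, which keeps every DP library and drops whole thymocytes, gave 562 (232 higher, 330 lower). Testing against a fold of 1.5, which is stricter by construction, gave 302 (109 and 193). Leaving out 1 library at a time gave 509 to 3493 called genes, 214 to 1982 higher and 295 to 1511 lower, with the lowest values without B6 DP replicate 2 and the highest without BALB DP replicate 2; an arm of 1 library is assumed to vary like the other groups. With no filter on low counts 1206 genes were higher, and 2212 were called among 17434 genes. The 14 genes whose strain effect differed between populations became 364 with no filter, 24 by DESeq2, 8 by limma-voom and 7 against a fold of 1.5, and 0 to 1311 with 1 library left out (the 0 by edgeR without whole B6 replicate 2, with 754 genes at an unadjusted p under 0.05). Counts under other scalings, a stricter filter, thinning, and without Rn45s and histone genes stayed within 1.5 times. The cause of these shifts was not tested. The fitted effect of Eif2s3y in DP cells changed sign without BALB DP replicate 1 and ranged from -0.010 to 0.28 with 1 library left out. That of Il17rb, also not called, changed sign without BALB DP replicate 2 and ranged from -0.077 to 0.43. With the replicate number as a block, 1321 genes passed (699 higher, 622 lower), and 11 differed between populations; the pair of DP groups correlated by 0.06 over same-numbered libraries and other pairs by -0.04 to 0.01, so the numbers are not taken to pair the samples. Depth limits genes at a few counts, such as those at 0 in 1 strain.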

Other observations

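Chaperones and chromatin genes have not been described above. Of 19 heat shock and chaperone genes, 5 rose and 2 fell in BALB (median 0.22), and 3 rose and 1 fell without BALB replicate 1. Hsp90aa1, the inducible cytosolic chaperone, was at 532 and 472 CPM in the B6 libraries and 1226 and 724 CPM in the BALB libraries (0.96 ± 0.20, adjusted p = 0.00847; 0.0959 without B6 replicate 2), and its log2 fold change was 0.53 without BALB replicate 1. Hspa8, the constitutive HSP70, was lower at 536 and 403 CPM in the B6 libraries and 325 and 281 CPM in the BALB libraries (-0.63 ± 0.14, adjusted p = 0.0153; 0.167 without B6 replicate 1), so the pair moved in opposite directions. Of 30 chromatin and epigenetic regulators, 6 rose and none fell by edgeR, with 6 lower at an unadjusted p under 0.05, and 6 passed lower without BALB replicate 2. Dnmt1, the maintenance DNA methyltransferase, was at 708 and 715 CPM in the B6 libraries and 1080.1 and 935 CPM in the BALB libraries (0.50 ± 0.09, adjusted p = 0.00533), and Ezh2, of Polycomb complex 2, at 495 and 484 CPM in the B6 libraries and 849.9 and 628 CPM in the BALB libraries (0.60 ± 0.12, adjusted p = 0.00941; 0.36 on the log2 scale without BALB replicate 1). Neither passed without B6 replicate 1 (0.0578 and 0.0648) or without B6 replicate 2 (0.0602 and 0.0989).

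Of 17 genes of Notch targets and double-negative precursors, 3 fell and 1 rose (median -0.27), with 6 lower without BALB replicate 2. Of 12 genes of regulatory T cells, 2 fell, Il2ra and Nrp1. Nrp1, a semaphorin coreceptor, was at 93.2 and 76.1 CPM in the B6 libraries and 40.5 and 38.4 CPM in the BALB libraries (log2 fold change -1.09 ± 0.15, adjusted p = 0.000643), and Foxp3, which defines those cells, was at 5.65 and 3.2 CPM in B6 and 1.93 and 1.94 CPM in BALB and did not pass (adjusted p = 0.141).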
